A study of Homo sapiens with 6 samples.

Results

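The genes of mitosis and the mitotic spindle were examined in PANC-1 cells, an established human pancreatic ductal carcinoma cell line, after transfection of siRNA against CD73. The 60 genes were taken from a list of symbols of mitotic kinases, spindle, checkpoint, kinetochore, kinesin, cytokinesis and chromosome proteins. The rule that lists them uses no measured value, but they were chosen with earlier results of these data known. All 60 had a row among the 30735 genes measured, and all 60 had at least 1 RPKM in at least 3 samples. RPKM is the read number of a gene normalized to its length in kilobases and to the size of the library. The comparison was of 3 samples that received CD73 siRNA with 3 that received the negative control siRNA, both delivered by lipofection in serum-free medium, and replicates carried the numbers 1, 2 and 3 in each group. The knockdown was transient, in 1 cell line and with 1 ordered siRNA product, and no time of harvest was given in the labels. The study describes its profiles as separate knockdown experiments, the labels do not name the cultures, and the p-values measure the spread between these samples.

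Mitosis is entered when cyclin B activates CDK1. Aurora and Polo-like kinases then build the spindle, kinesins move along its microtubules, and kinetochores join chromosomes to it. The spindle checkpoint holds the anaphase-promoting complex in check until all chromosomes are attached, after which separase cuts cohesin and the cell divides. Many of the genes are transcribed together late in the cell cycle, from promoters that hold a CHR element (cell cycle genes homology region) bound by the MuvB core with B-MYB and FOXM1, often beside CCAAT boxes bound by NF-Y. In bulk RNA, fewer cells in mitosis and less RNA per mitotic cell cannot be told apart.

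The promoters were read in RefSeq windows (GRCh38.p14, from 250 bases before to 50 bases after each listed start), which were at hand for 50 of the 60 genes. The CHR letters searched were TTTGAA on both strands, which reads as TTCAAA on the other strand, and the CCAAT letters were searched on both strands as well. Of 64 windows of the members, 60.9% held TTTGAA, against 15.2% of 35116 windows of all genes, and 35.9% held it within the 50 bases before the start, against 2.56% of all. CCAAT was found in 67.2% of the members' windows and in 34.6% of all. At least 1 window held TTTGAA in 36 of the 50 genes, and 29 genes held both motifs. The stretches below are from KIF11 and CDCA8, which were called lower after CD73 siRNA, and from PLK1 and CCNB2, which were not called. Capitals mark the motif letters, and each stretch runs on the forward strand from the coordinates given.
KIF11, chr10:92593000-92593129: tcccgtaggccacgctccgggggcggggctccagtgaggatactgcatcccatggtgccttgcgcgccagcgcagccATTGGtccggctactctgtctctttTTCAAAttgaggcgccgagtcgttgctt
CDCA8, chr1:37692481-37692510: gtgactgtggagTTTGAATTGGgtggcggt
PLK1, chr16:23678848-23678877: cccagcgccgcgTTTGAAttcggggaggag
CCNB2, chr15:59105105-59105134: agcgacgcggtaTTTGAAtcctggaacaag
The CHR letters begin 28 bases before the RefSeq start in KIF11, 23 in CDCA8, 29 in PLK1 and 29 in CCNB2, and in CDCA8 they share a base with the reverse-strand CCAAT letters. In GENCODE 29 the first annotated transcripts of CDCA8, PLK1 and CCNB2 start upstream of these stretches. KIF11 starts there at 92593286, downstream of its stretch, so its distance of 28 bases holds for the RefSeq start only. The window of TACC3, which was higher after CD73 siRNA, held neither motif, and BIRC5 had no window. The median log2 fold change was 0.08 over the 36 genes with TTTGAA and -0.01 over the 14 without it. For CCAAT the order was the reverse, with 0.04 over the 38 genes with it and 0.1 over the 12 without it. A match of letters is a description of the window and not a measured binding site.

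The libraries held 15009109 to 16836201 reads, as implied by the steps between low values. NT5E, which encodes CD73, was at 3.36, 6.85 and 8.22 RPKM after CD73 siRNA and at 13.96, 13.87 and 17.14 RPKM in the controls (log2 fold change -1.23 with SE 0.26, limma adjusted p = 0.303, exact permutation p = 0.1). Every siRNA sample lay below every control, and the residual level was lowest in replicate 1. The epithelial keratins KRT8 and KRT18 were expressed at 30.01 to 157.96 RPKM, and both passed p below 0.01 as lower after CD73 siRNA (log2 fold change -1.27 and -0.68). KRT18 lost its call without siRNA replicate 1 or 3 or control replicate 1 or 3 (-0.72 to -0.51), and both keratins lost it with no moderation. Other epithelial markers were low, with KRT19 at 3.59 to 5.39, EPCAM at 0.58 to 1.71, CDH1 at 0.42 to 1.69 and KRT7 at most at 0.11 RPKM. Of 6 measured markers of leukocytes, endothelium, fibroblasts and islets, 5 did not exceed 0.08 RPKM, and COL1A1 was at 8.97 to 19.06 RPKM.

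The mitotic genes as a group differed little between the conditions, and 4 of the 60 passed an unadjusted limma p below 0.01, the limit used for gene calls here. TACC3 and BIRC5 were higher after CD73 siRNA, and KIF11 and CDCA8 were lower. The share of members called was 6.67%, against 3.13% of the 12527 genes tested, with 1.82% of all genes called higher and 1.31% called lower. In this fit, which held no term for the replicate number, no other member passed an unadjusted p below 0.05. The share at that limit was again 6.67%, against 12.1% of all tested genes. Of the members, 0 of 60 had an adjusted p below 0.05 (the smallest was 0.303). The median log2 fold change was 0.069 (middle 50% from -0.05 to 0.15, range -0.55 to 0.58), against 0.009 over all tested genes. The point estimate was positive for 36 members and negative for 24. For 50 of 60 members the 95% confidence interval lay within a 1.5-fold change in either direction, a log2 value of 0.58, which held for 68.9% of all tested genes. With a block for the replicate number, CKS2, HMMR, PTTG1, CENPF, CDC25A and MYBL2 also had an unadjusted limma p below 0.05 (0.00953 to 0.0478). The share of all tested genes at that limit with the block is not given here.

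The members were highly expressed and close between replicates. Their mean levels ran from 5.74 RPKM (CDC25C) to 241.3 RPKM (TPX2) with a median of 34, while the median of all tested genes was 6.9 RPKM. The reads behind a value ranged from 273 to 15458. The median coefficient of variation between replicates was 8.21% in the siRNA samples and 10.8% in the controls, against 11.9% and 14% over all tested genes. The permutation test on 3 against 3 samples cannot give an exact p below 0.1, which was reached by each of the 8 members whose groups did not overlap. That was 13.3% of the members, against 18.4% of all tested genes. CENPF, MYBL2, TACC3 and BIRC5 lay higher in every siRNA sample than in any control, and CDC25C, BUB3, KIF11 and CDCA8 lay lower.

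KIF11 is the kinesin Eg5, a homotetrameric motor that slides antiparallel microtubules apart and so separates the spindle poles. It lies on chromosome 10 (92593286 to 92655395, forward strand, GRCh38, as do the coordinates that follow). It was measured at 28.36, 34.04 and 34.27 RPKM after CD73 siRNA and at 45.30, 46.19 and 50.93 RPKM in the controls. The highest siRNA sample lay below the lowest control, and the siRNA mean was 67.9% of the control mean. The log2 fold change was -0.55 (SE 0.11, 95% confidence interval -0.80 to -0.29, limma adjusted p = 0.303). Within numbers the log2 differences were -0.66, -0.43 and -0.56, and KIF11 passed p below 0.01 under all 12 alternative settings, with the adjusted p between 0.108 and 0.751. The other 6 kinesins had no call. KIF2C, the depolymerase MCAK that corrects wrong attachments, was at 28.44, 31.35 and 26.21 RPKM against 32.22, 31.72 and 31.21 in the controls (log2 fold change -0.14, SE 0.10). KIF20A and KIF23, motors of the central spindle, both had log2 fold changes of -0.01. KIF4A, KIF14 and KIF18A lay between -0.03 and 0.08.

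**Figure D1:**
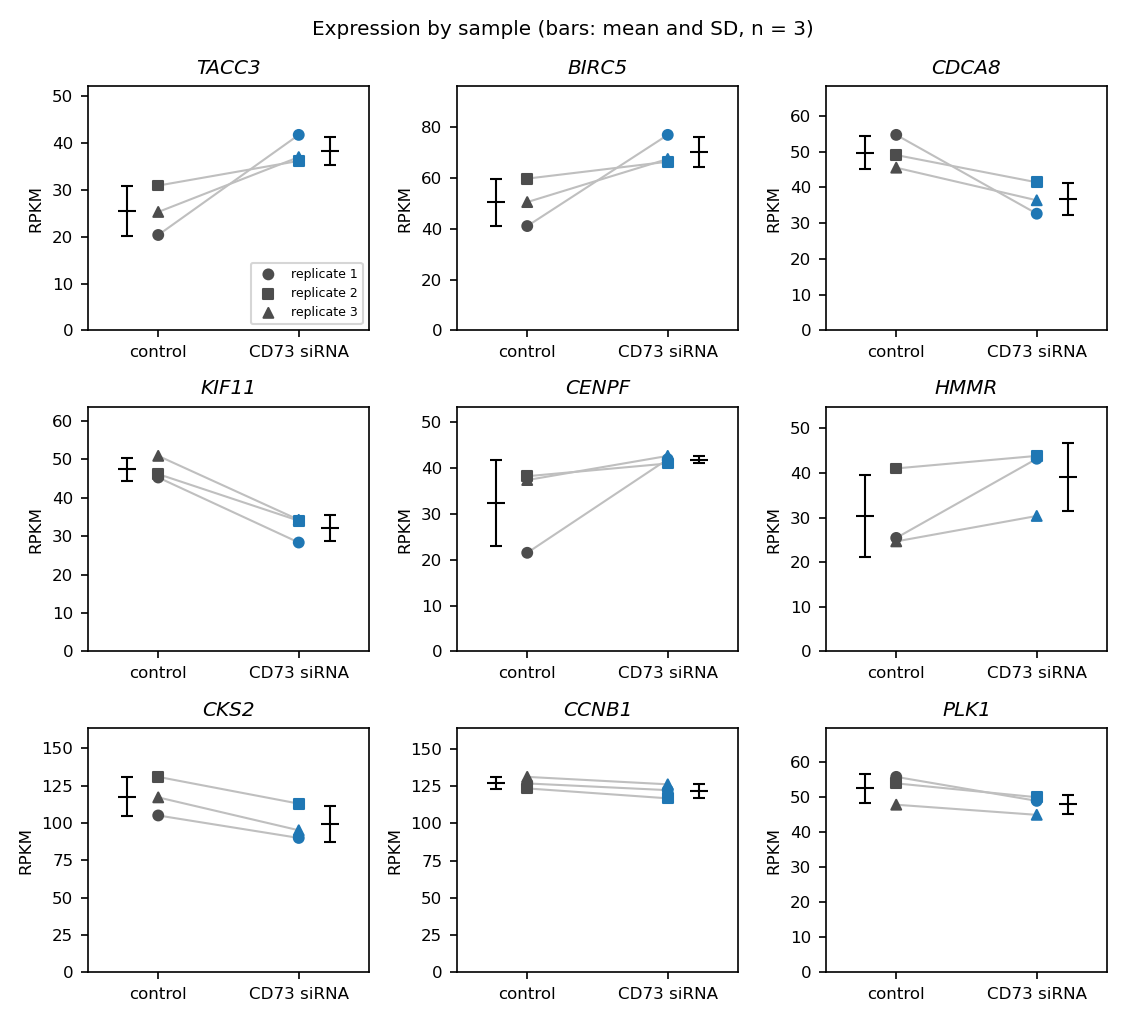
RPKM (y axis, from 0) in every sample for 9 members, with grey symbols for controls, blue for CD73 siRNA, symbol shape for the replicate number, grey lines joining equal numbers, and bars for mean and SD (n = 3). KIF11 and CDCA8 are lower and TACC3 and BIRC5 higher in every siRNA sample than in any control, while CCNB1 and PLK1 overlap.

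The chromosomal passenger complex, which corrects attachments and later acts at the midzone, gave 2 of its 4 members past p below 0.01, in opposite directions. CDCA8 encodes borealin, which targets the complex to centromeres, and lies on chromosome 1 (37692418 to 37709719, forward strand). It was measured at 32.65, 41.43 and 36.40 RPKM after CD73 siRNA and at 54.70, 49.06 and 45.52 RPKM in the controls. The groups did not overlap, with a log2 fold change of -0.43 (SE 0.12, limma adjusted p = 0.305). BIRC5 encodes survivin, the partner of borealin in that targeting and a member of the inhibitor of apoptosis family, on chromosome 17 (78214186 to 78225636, forward strand). It was at 76.86, 66.32 and 67.40 RPKM against 41.02, 59.67 and 50.44 in the controls, again without overlap. Its log2 fold change was 0.48 (SE 0.14, limma adjusted p = 0.319). BIRC5 stood just at the limit of a call, with an unadjusted limma p of 0.009997. With a block for the replicate number the unadjusted limma p was 0.0111, just past the limit, and BIRC5 was no longer called (adjusted p = 0.134). AURKB, the kinase of the complex, was at 31.59, 33.74 and 37.13 RPKM against 34.53, 35.83 and 34.96 in the controls, and the groups overlapped (log2 fold change -0.04, SE 0.10). INCENP, its scaffold, had means of 21.02 ± 3.69 and 17.67 ± 4.32 RPKM (SD, n = 3), a log2 fold change of 0.25 (SE 0.20).

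Among the 12 genes of spindle kinases and spindle assembly, TACC3 alone was called. TACC3 binds clathrin and ch-TOG to bridge spindle microtubules and lies on chromosome 4 (1721490 to 1745176, forward strand). It was at 41.78, 36.22 and 37.03 RPKM after CD73 siRNA and at 20.39, 30.95 and 25.31 RPKM in the controls. The siRNA mean was 150% of the control mean, and the log2 fold change was 0.58 (SE 0.15, 95% confidence interval 0.23 to 0.93, limma adjusted p = 0.303). The difference was uneven over the numbers, at 1.0, 0.22 and 0.53. AURKA, the centrosomal kinase that TACC3 is a substrate of, was at 59.04, 58.98 and 54.18 RPKM against 59.17, 61.34 and 56.64 in the controls. Its log2 fold change was -0.04 (SE 0.09), and the groups overlapped. TPX2, the activator of AURKA on microtubules, had the highest level of the 60 genes, at 249.56, 272.43 and 242.69 RPKM against 190.38, 264.30 and 228.21 in the controls (log2 fold change 0.17, SE 0.13). PLK1, which drives centrosome maturation and mitotic entry, was at 48.86, 49.89 and 44.88 RPKM against 55.69, 53.84 and 47.76 in the controls. It was lower within each number, by log2 differences of -0.19, -0.11 and -0.09, while the groups overlapped (limma adjusted p = 0.636). HMMR, a TPX2-binding spindle protein, was at 43.19, 43.83 and 30.36 RPKM against 25.44, 41.02 and 24.66 in the controls, with a log2 fold change of 0.37 (SE 0.22, limma adjusted p = 0.514). With control replicate 2 left out, HMMR had a log2 fold change of 0.60 and was called. The other 7, which were PLK4, NEK2, NUSAP1, DLGAP5, ASPM, CKAP2 and GTSE1, had log2 fold changes between -0.06 and 0.16. In NUSAP1, 62.2% of the exonic bases are shared with another annotated gene on the same strand, so its level is uncertain.

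Cyclin B, CDK1 and their regulators made up 9 genes, none of them called (median log2 fold change -0.03). CCNB1, cyclin B1, was at 122.27, 116.79 and 126.18 RPKM against 126.77, 123.43 and 131.17 in the controls, a log2 fold change of -0.06 with a 95% confidence interval of -0.26 to 0.14. CDK1 was at 55.64, 52.41 and 45.83 RPKM against 44.90, 53.85 and 46.46, a log2 fold change of 0.08 with an interval of -0.18 to 0.35. The groups overlapped for both. CKS2, the small subunit that binds CDK1 and aids its substrate recognition, was at 90.01, 112.97 and 95.15 RPKM against 105.06, 130.89 and 117.17 in the controls. It was lower by a similar amount within each number (log2 differences -0.22, -0.21 and -0.30), and it was called with a block for the replicate number (limma adjusted p = 0.13) and not without it (adjusted p = 0.474). The block fit called 4 members, CKS2, TACC3, CDCA8 and KIF11, and 7.57% of all tested genes. CDC25C, the phosphatase that removes the inhibitory phosphates of CDK1, had the lowest level of the 60, at 5.08, 5.57 and 5.48 RPKM against 6.10, 5.81 and 6.38 in the controls (log2 fold change -0.15, SE 0.10, limma adjusted p = 0.559). CCNB2, CDC25A, CDC25B, and the CDK1-inhibiting kinases WEE1 and PKMYT1 lay between -0.22 and 0.25 on the log2 scale. PKMYT1 shares 31.6% of its exonic bases with genes on the opposite strand, and whether reads were counted by strand was not given in the sources used here.

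None of the 5 spindle checkpoint genes was called, and the confidence interval of all 5 lay within a 1.5-fold change. BUB1, the kinase that marks unattached kinetochores, was at 41.82, 43.75 and 39.91 RPKM against 30.83, 42.16 and 37.36 in the controls (log2 fold change 0.19, SE 0.13). BUB1B, which encodes BUBR1 of the mitotic checkpoint complex, was at 30.55, 29.57 and 34.48 RPKM against 25.35, 27.31 and 35.56 (0.11, SE 0.14). The controls spread more widely than the siRNA samples for both genes. BUB3, which carries BUB1 and BUBR1 to kinetochores, was at 34.38, 34.19 and 31.86 RPKM against 36.24, 36.65 and 37.90, a log2 fold change of -0.14 (SE 0.09, limma adjusted p = 0.556) without overlap of the groups. MAD2L1, the MAD2 protein that binds CDC20, was at 18.08, 16.58 and 16.77 RPKM against 17.94, 18.16 and 19.31 (-0.10, SE 0.09). TTK, the kinase MPS1 that starts the signal, had a log2 fold change of 0.09.

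All 6 kinetochore and centromere genes had positive log2 fold changes, from 0.06 to 0.41, and none was called. Without control replicate 1 they ran from -0.02 (NUF2) to 0.14 (CENPF), with CENPA at -0.01 and CENPE at 0.01. CENPF, a large outer kinetochore protein, was at 41.97, 41.03 and 42.69 RPKM against 21.53, 38.25 and 37.41 in the controls. Control replicate 1 stood far below the other samples of CENPF (log2 fold change 0.41, SE 0.20, limma adjusted p = 0.462). CENPE, the kinetochore kinesin that carries chromosomes to the spindle equator, was at 12.89, 14.48 and 13.06 RPKM against 8.11, 13.90 and 12.81 (0.23, SE 0.18), and again control replicate 1 was the lowest sample. In all 6 genes control replicate 1 was the lowest control. Within replicate 1 their median log2 difference was 0.452, and within replicates 2 and 3 it was 0.004 and 0.10. The others were CENPA, the centromeric histone, at 0.16, and the NDC80 complex subunits NDC80, NUF2 and SPC25 at 0.13, 0.06 and 0.16.

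The 5 cytokinesis genes were likewise positive in log2 fold change, from 0.08 to 0.21, with no call. Without control replicate 1 PRC1 was at 0.06, CEP55 at 0.08 and ECT2 at -0.00, while ANLN and RACGAP1 changed little, at 0.12 and 0.08. PRC1, the bundler of midzone microtubules, was at 30.74, 33.19 and 33.95 RPKM against 24.40, 30.82 and 31.80 in the controls (0.17, SE 0.12). It shares 57.6% of its exonic bases with another annotated gene on the same strand. CEP55, which recruits the abscission machinery to the midbody, was at 88.79, 78.34 and 68.71 RPKM against 56.08, 78.22 and 70.33 (0.21, SE 0.15). The difference in CEP55 came from replicate 1, where it was 0.65, while it was 0.00 and -0.03 in replicates 2 and 3. ANLN, ECT2 and RACGAP1, of the contractile ring and its RhoA signal, had log2 fold changes of 0.14, 0.11 and 0.08.

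Of the 4 genes of anaphase onset none was called, and each interval lay within a 1.5-fold change. CDC20, the activator of the anaphase-promoting complex, was at 139.73, 138.07 and 141.47 RPKM against 149.81, 144.15 and 135.34 in the controls (log2 fold change -0.03, SE 0.09). PTTG1, which encodes securin, the inhibitor of separase, was at 64.21, 61.17 and 52.55 RPKM against 69.78, 69.26 and 63.71 (-0.19, SE 0.11). Securin was lower within each number, and the groups overlapped (limma adjusted p = 0.501). ESPL1, separase itself, was at 16.18, 14.54 and 17.73 RPKM against 14.86, 15.05 and 14.67 (0.11, SE 0.10). UBE2C, the ubiquitin-conjugating enzyme of the complex, had a log2 fold change of 0.03.

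Chromosome structure was represented by 6 genes with log2 fold changes from -0.09 to 0.09, and none was called. TOP2A, the topoisomerase that untangles sister DNA, was at 112.49, 130.43 and 130.49 RPKM against 117.39, 139.91 and 139.79 in the controls (-0.09, SE 0.11). MKI67, the Ki-67 antigen used as a proliferation marker, was at 42.57, 42.77 and 57.59 RPKM against 46.62, 44.52 and 57.22 (-0.06, 95% confidence interval -0.41 to 0.29). In both genes the spread between replicate numbers was wider than the difference within a number. SMC2, a condensin ATPase, was at 26.18, 28.07 and 25.01 RPKM against 22.67, 27.09 and 24.84 (0.09, SE 0.10). NCAPG, another condensin subunit, was at 23.89, 25.07 and 24.48 RPKM against 20.39, 23.99 and 24.41 (0.09, SE 0.10), and it shares 33.1% of its exonic bases with a gene on the opposite strand. SMC4 and NCAPH, the remaining condensin subunits, were at -0.02 and -0.07.

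The transcription factors of the program gave no call. FOXM1 was at 26.70, 25.56 and 29.26 RPKM against 27.32, 25.84 and 26.10 in the controls, a log2 fold change of 0.04 with a 95% confidence interval of -0.18 to 0.26. MYBL2, which encodes B-MYB, was at 102.03, 96.27 and 99.33 RPKM against 89.85, 92.27 and 78.12 (0.19, SE 0.10, limma adjusted p = 0.463). The lowest siRNA sample of MYBL2 lay above the highest control, and those of FOXM1 overlapped.

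The comparison within replicate numbers gave different pictures for the 3 numbers. In replicate 1 the log2 difference was positive for 40 of 60 members (66.7%, against 51.9% of all tested genes), with a median of 0.179. In replicate 2 it was positive for 26 (43.3%, against 49.6%) with a median of -0.023, and in replicate 3 for 33 (55.0%, against 52.3%) with a median of 0.008. The members were therefore shifted upward in replicate 1 and centred near 0 in the others. This was not particular to them. In replicate 1 the difference was positive for 64.0% of the other mitotic genes described below (median 0.107). It was positive for 63.5% of the DNA replication genes (median 0.111). All 3 numbers gave a positive difference for 20 members (33.3%, against 27% of all tested genes) and a negative one for 12 (20.0%, against 24.5%). Control replicate 1 was the lowest control for 34 of 60 members (56.7%, against 35.8% of all tested genes), and control replicate 2 was the highest for 36 (60%, against 40.7%). The summed RPKM of the 60 genes was 2582.6 in control replicate 1, between 2718.3 and 2957.0 in the other controls, and between 2731.5 and 2920.4 in the siRNA samples. Its library implied 16039278 reads, inside the range of the others. Without control replicate 1 the median log2 fold change of the members was 0.008, and TPX2, BUB1, BUB1B and INCENP were at 0.05, 0.07, 0.01 and 0.04. Not every positive member moved toward 0. CDC25A, MYBL2 and TTK were then at 0.33, 0.22 and 0.10, against 0.25, 0.19 and 0.09 with all samples.

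**Figure D2:**
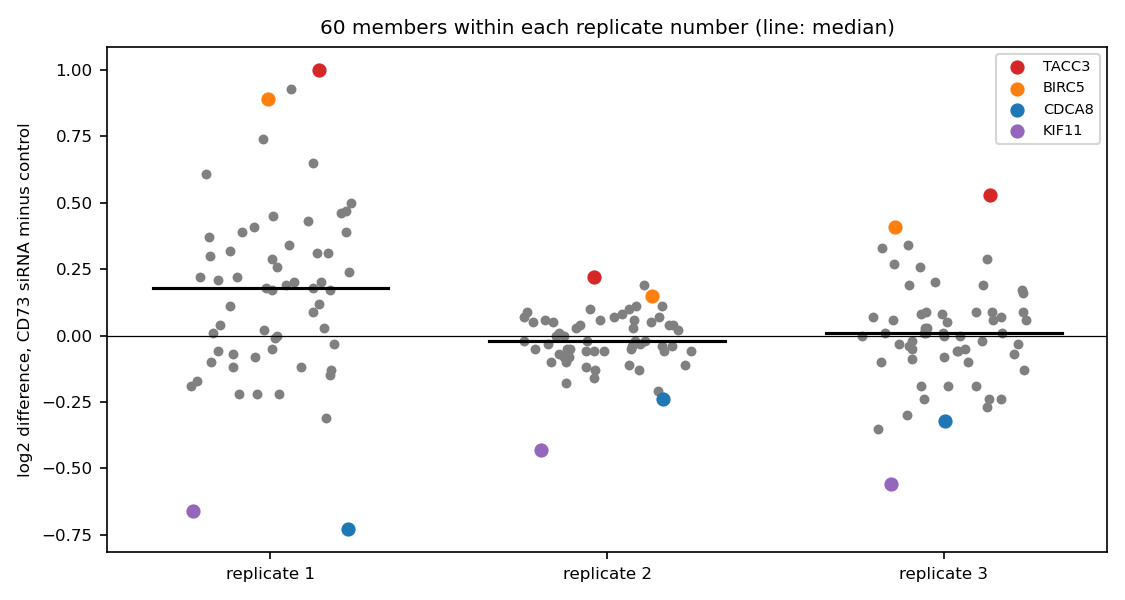
Log2 difference between the CD73 siRNA sample and the control with the same number (y axis, log2(RPKM + 1)) for the 60 genes, with black lines at the medians of 0.179, -0.023 and 0.008 and sideways scatter for legibility only. KIF11 and CDCA8 are below 0 and TACC3 and BIRC5 above 0 in all 3 numbers, with a wider spread of all members in replicate 1.

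The calls depended on the libraries to different degrees. KIF11 was called whichever sample was left out. TACC3 was called in 7 of the 12 alternatives and lost its call without siRNA replicate 1, siRNA replicate 3, control replicate 1 or control replicate 3, with log2 fold changes of 0.44 to 0.61. CDCA8 was called in 7 as well and lost its call without siRNA replicate 1, siRNA replicate 3, control replicate 1 or control replicate 2, with log2 fold changes of -0.43 to -0.35. BIRC5 was called in 3 of the 12 and lost its call without any of the 3 siRNA replicates, without control replicate 1 and without control replicate 3, with log2 fold changes of 0.35 to 0.52. It was also not called with a pseudocount of 0.1, with no filter on low values or with the block, and TACC3, CDCA8 and BIRC5 were not called with no moderation. The direction was kept by all 4 genes in all 12 alternatives, and by 42 of the 60 members. For the 4 genes it could not turn when a sample was left out, since their groups did not overlap. The block, no moderation and no filter leave the estimate of every gene as it was, so the kept direction is no separate evidence there. 

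A further 90 mitotic genes, which were not among the 60, were examined in the same fit, and 89 of them were tested. ZW10, a subunit of the complex that loads dynein and checkpoint proteins on kinetochores, was the only one called, at 22.85, 23.68 and 21.32 RPKM after CD73 siRNA and 5.90, 14.42 and 11.82 in the controls (log2 fold change 1.09, limma adjusted p = 0.303). Its groups did not overlap, the lowest value was again in control replicate 1, and the call was lost without siRNA replicate 1 (log2 fold change 1.08) and with no moderation. The share called was 1.12%, against 3.13% of all tested genes, and the median log2 fold change was 0.021. With the block 6 of the 89 were called (6.74%, against 7.57% of all tested genes), namely ZW10, MAD1L1, ENSA and DEPDC1 as higher and KIF18B and KPNA2 as lower. MAD1L1 encodes MAD1, the kinetochore receptor of MAD2, and ENSA an inhibitor of the phosphatase that opposes CDK1. CCNA2, cyclin A2, was at 45.53, 43.82 and 46.62 RPKM against 45.75, 40.90 and 46.46 in the controls, a log2 fold change of 0.03 (SE 0.09).

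**Figure D3:**
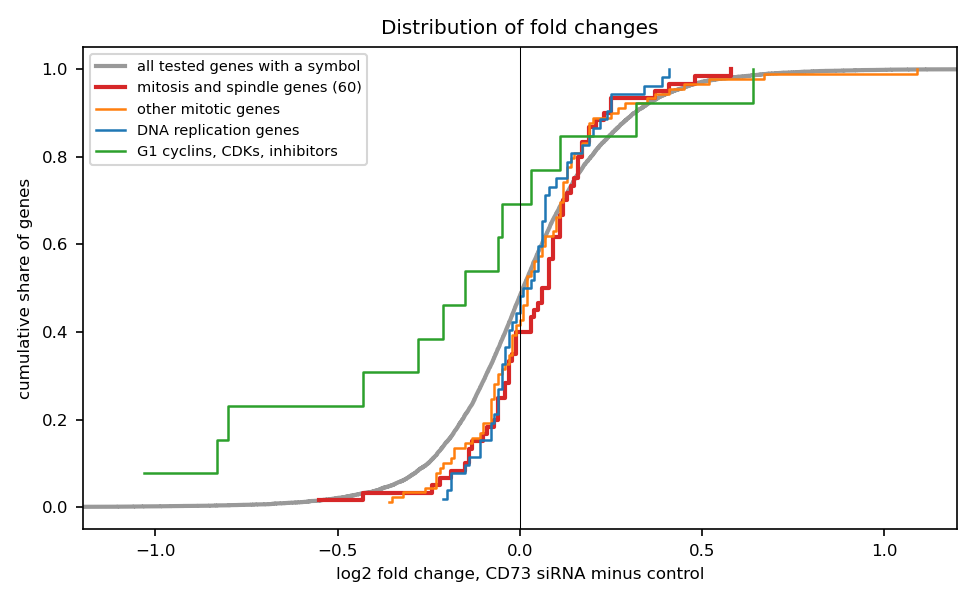
Cumulative share of genes (y axis) at or below each log2 fold change (x axis, CD73 siRNA minus negative control) for the 60 genes, the other mitotic genes, DNA replication genes, G1 genes and all tested genes with a symbol. The lines of the mitotic lists cross 0 near the line of all genes, with medians of 0.069 and 0.021 against 0.009, and the G1 line lies to the left, with a median of -0.151.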

How the data were processed

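RNA-seq of 6 PANC-1 samples (3 CD73 siRNA, 3 negative control) was analysed from the tables that the authors deposited, 1 normalized value per gene and sample. No source names the unit. It was read as RPKM, since the deposited values multiplied by GENCODE 29 exon length were whole multiples of 1 step in 95.5% to 95.6% of values under 1000 reads (tolerance 0.05 reads), and these steps gave the implied library totals. The submitters' processing notes list bcl2fastq, Bowtie2 2.2.3, HTSeq 0.6.0 and hg38, and parameters and the strand setting are not given in the sources used here. RPKM removes length and depth, and not a shift in RNA composition. Groups and numbers came from the labels.

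Of 30735 genes, the 12527 that reached 1 RPKM in 3 or more samples were compared on log2(RPKM + 1) by limma 3.58.1 (lmFit, eBayes with trend, R 4.3.3), with Benjamini-Hochberg adjustment over all of them. Fold changes on this scale understate those of low genes. Calls were at unadjusted p below 0.01, after the study's limit, at which 392 genes were called, and adjusted p-values are given beside them. Only a Y_RNA gene had an adjusted p below 0.05. Tests were two-sided. The limma fit was also run on simulated data with independent normal noise for each gene and sample and no effect of the replicate number. That run does not show how the p-values behave under the shared deviations described below. Exact permutation tests used SciPy 1.17.1.

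Same-numbered samples deviated together from their group means (correlations over genes of 0.197, 0.481 and 0.553, against -0.439 to -0.00637 for unequal numbers). The deviations of a group sum to 0 in each gene. Positive values for equal numbers therefore push those for unequal numbers below 0, and the latter are no separate comparison. The numbers shared in the titles were used as pairs for the differences within numbers and for the block. The main fit held no term for the number, so its p-values, SEs and intervals do not use the pairing. A blocked adjusted p is printed for the members whose call the block changed. The members and lists were chosen with earlier results of these data known. The genes named with values were those called, the 2 with the smallest p in each of 10 roles, the 3 with the highest level and a fixed set of well-known genes, and the remaining members were given by fold change or mean. From the other lists they were those called, and CCNA2, CCND1, CDKN1A and SKP2. Block calls, RRM2 and CHAF1B were named as well, after their values were seen. Alternatives were a pseudocount of 0.1, no filter, the block, no moderation, median-of-ratios scaling, quantile normalization and each sample left out. CDKN2A and CDKN2B of the G1 list, and DCN, PRSS1 and CPA1 of the markers, were not analysed here, and 1 gene of the DNA replication list is not reported here by name.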

Additional observations from a re-analysis of the deposited data

How the results depend on the processing

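Both scalings left the direction of all 60 members as it was and moved the median over all genes to -0.001 and -0.009. The number of genes past p below 0.01 was 392, and it was 948 with the replicate block, 216 with no moderation and 116 (without siRNA replicate 1) to 792 (without control replicate 2) when samples were left out. Members past the limit numbered 4, 1 with no moderation, and 1 to 4 when samples were left out, with 1 of them, KIF11, without siRNA replicate 1, siRNA replicate 3 or control replicate 1. With no moderation 1 of the G1 genes was called and NT5E, at -1.23, was not. With no filter on low values 2 of the other mitotic genes and 2 of the E2F, RB and MuvB genes were called, and with the replicate block 6 and 2. With samples left out, 1 to 7 other mitotic genes, 0 to 1 E2F, RB and MuvB genes, 2 to 5 G1 genes and 0 to 1 DNA replication genes were called. The median log2 fold change of the E2F, RB and MuvB genes then ran from -0.052 to 0.044, that of the G1 genes from -0.292 to -0.068, and that of the members from 0.008 to 0.117. Of the 60 members 18 turned sign in these runs, which had log2 fold changes from -0.06 to 0.16 with all samples, and so did CCNA2. Their ranges were PLK4 -0.05 to 0.16, AURKB -0.10 to 0.01, KIF20A -0.07 to 0.03, MKI67 -0.20 to 0.05, CDC25B -0.14 to 0.09, KIF14 -0.15 to 0.08, KIF18A -0.04 to 0.16, UBE2C -0.06 to 0.11, CKAP2 -0.04 to 0.04, KIF23 -0.03 to 0.01, SMC4 -0.13 to 0.05, FOXM1 -0.02 to 0.08, CENPA -0.01 to 0.36, NUF2 -0.02 to 0.13, ECT2 -0.00 to 0.22, CDC20 -0.07 to 0.00, CCNA2 -0.02 to 0.07, PKMYT1 -0.03 to 0.12 and ASPM -0.13 to 0.03. The block changed no call among the members beyond CKS2 and BIRC5. Where a sample was left out the test had fewer samples, and the cause of the other changes was not tested. With 3 samples a group, changes smaller than the printed intervals could not be told from 0.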

Other observations

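The neighbouring parts of the cell cycle were read in the same fit. Among 52 DNA replication genes, all tested, limma called 0 at p below 0.01, against 3.13% of all tested genes, and the block called 0, against 7.57%. At p below 0.05 there were 3 (5.77%, against 12.1%). Among them were RRM2, a subunit of ribonucleotide reductase, and CHAF1B, a subunit of a chromatin assembly factor, with log2 fold changes of 0.41 and 0.34. The median over the list was 0.019. Control replicate 1 was the lowest control for 28 of the 52 genes.

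Of 17 genes of the E2F, RB and MuvB families 16 were tested, and E2F1, an activator of S phase genes, was called. That was 6.25% of those tested, against 3.13% of all tested genes. It was at 42.07, 39.90 and 43.85 RPKM after CD73 siRNA and at 26.25, 34.76 and 30 RPKM in the controls, without overlap (log2 fold change 0.46, limma adjusted p = 0.303). The call was lost without siRNA replicate 1 or 3 and without control replicate 1 or 3, with log2 fold changes of 0.37 to 0.46, and with no moderation. RB1, the retinoblastoma protein that restrains E2F, was at 7.86, 11.67 and 11.27 RPKM against 13.13, 16.47 and 14.70, a log2 fold change of -0.50, which was called with the replicate block and not without it (limma adjusted p = 0.342 without it). With the block 2 of the 16 tested genes were called (12.5%, against 7.57% of all tested genes).

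The G1 cyclins, CDKs and inhibitors had the largest share called of these lists, 30.8% against 3.13% of all tested genes, with 4 of the 13 tested genes called and all 4 lower (1.31% of all tested genes were called lower). The list was chosen with earlier results of these data known, so this share is a description and not an independent test. SKP2, which targets p27 for degradation, was at 6.87, 6.72 and 9.18 RPKM against 18.96, 13.01 and 18.02 in the controls (log2 fold change -1.03, limma adjusted p = 0.303). CCND1, cyclin D1, was at 75.46, 76.90 and 72.10 RPKM against 180.19, 103.69 and 128.98 (-0.83). The inhibitors CDKN1A and CDKN1B were lower too. CDKN1A, p21, was at 8.14, 9.79 and 8.14 RPKM against 20.34, 11.95 and 16.19 (-0.80), and CDKN1B, p27, at 15.31, 14.60 and 14.73 RPKM against 23.89, 19.50 and 18.35 (-0.43). The other tested inhibitors had no call, with CDKN1C at -0.28, CDKN2C at 0.11 and CDKN2D at 0.32. In all 4 called genes every siRNA sample lay below every control (the groups did not overlap for 18.4% of all tested genes), and control replicate 1 was the highest sample. SKP2 and CCND1 were called whichever sample was left out, CDKN1A was not called without siRNA replicate 1, and of the 6 fits with a sample left out CDKN1B was called only in that without control replicate 3. With no moderation SKP2 alone of the 4 was called. CDK6 was called with the replicate block and not without it, at 11.54, 11.87 and 13.36 RPKM against 4.79, 8.43 and 10.31 (0.64). With the block 38.5% of the tested G1 genes were called, against 7.57% of all tested genes.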
